A study of Catharanthus roseus with 3 samples.

Results

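Leaf and flower of the Madagascar periwinkle, Catharanthus roseus variety Prabal, were compared as 1 sequenced library each, and the root library was not used. Both came from mature plants grown in the field, with no treatment in the labels, and how many plants each library holds is not given in the sources used here. The question was which transcripts differ between a green organ with known alkaloid synthesis and the flower, by how much, and where the alkaloid pathway lies among them. Of 59220 assembled transcripts, 12310 were compared, namely those with at least 10 RPKM in leaf or in flower. RPKM is the number of reads per kilobase of transcript, scaled to library size, so that levels of different transcripts may be set side by side. Names from the alkaloid pathway were paired with 19 transcripts, of which 16 reached that minimum. For 3 of the 19 the pairing stands in the study's text, and the rest came from an earlier reading of its pathway scheme.

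Each tissue has a single library and hence no measured spread, so no test was possible and no p-value is given. A difference between these libraries may come from the tissues or from the plants and preparations behind them, and the 2 cannot be told apart. Differences were described by the log2 ratio of (RPKM + 1), leaf over flower, which is positive where leaf is higher and shrinks the differences of transcripts near 0. A transcript was counted as apart from a ratio of 2-fold on this scale. Plain ratios of RPKM are given beside it with a 95% interval from counting reads alone, taking at least 15 independent reads per RPKM. Sequencing was paired-end, and reads of the same pair are not independent, so the intervals may be too narrow. These intervals say nothing of differences between plants. The tissue labels could not be checked against marker genes, because the files pair no names with the identifiers. In whole organs, fewer cells of a type and less RNA per cell cannot be told apart.

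Periwinkle makes terpenoid indole alkaloids by joining a terpenoid and an indole precursor. The plastid MEP pathway supplies the terpenoid units, the iridoid branch turns geraniol into secologanin, and the indole branch turns tryptophan into tryptamine. Strictosidine synthase couples secologanin to tryptamine, and a glucosidase opens the product towards many alkaloids, among them catharanthine and tabersonine. In aerial organs tabersonine is converted stepwise into vindoline, whose coupling with catharanthine leads to vinblastine. These steps are known to be spread over several cell types of the leaf.

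Alkaloid-pathway transcripts were more often higher in leaf than in flower. Of the 19, 9 were higher in leaf by 2-fold or more, 3 were lower to that extent and 7 lay between. Among all 59220 transcripts with no minimum, 8.63% were higher by this rule and 9.07% lower. Of the 16 that reached 10 RPKM, the same 9 were higher and the same 3 lower, beside 21.5% higher and 20.9% lower among the 12310 compared. The median log2 ratio of these 16 was 1.17, beside 0.07 over all transcripts compared. The list is not independent of the data. Of its members, 10 had been picked by the study for RT-PCR as differentially expressed in root and leaf, with the leaf library used here among the data, and 6 of those were higher in leaf and 1 lower, with a median of 2.44. Among the remaining 9, 3 were higher, 2 were lower, and the median was 0.31.

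**Figure D1:**
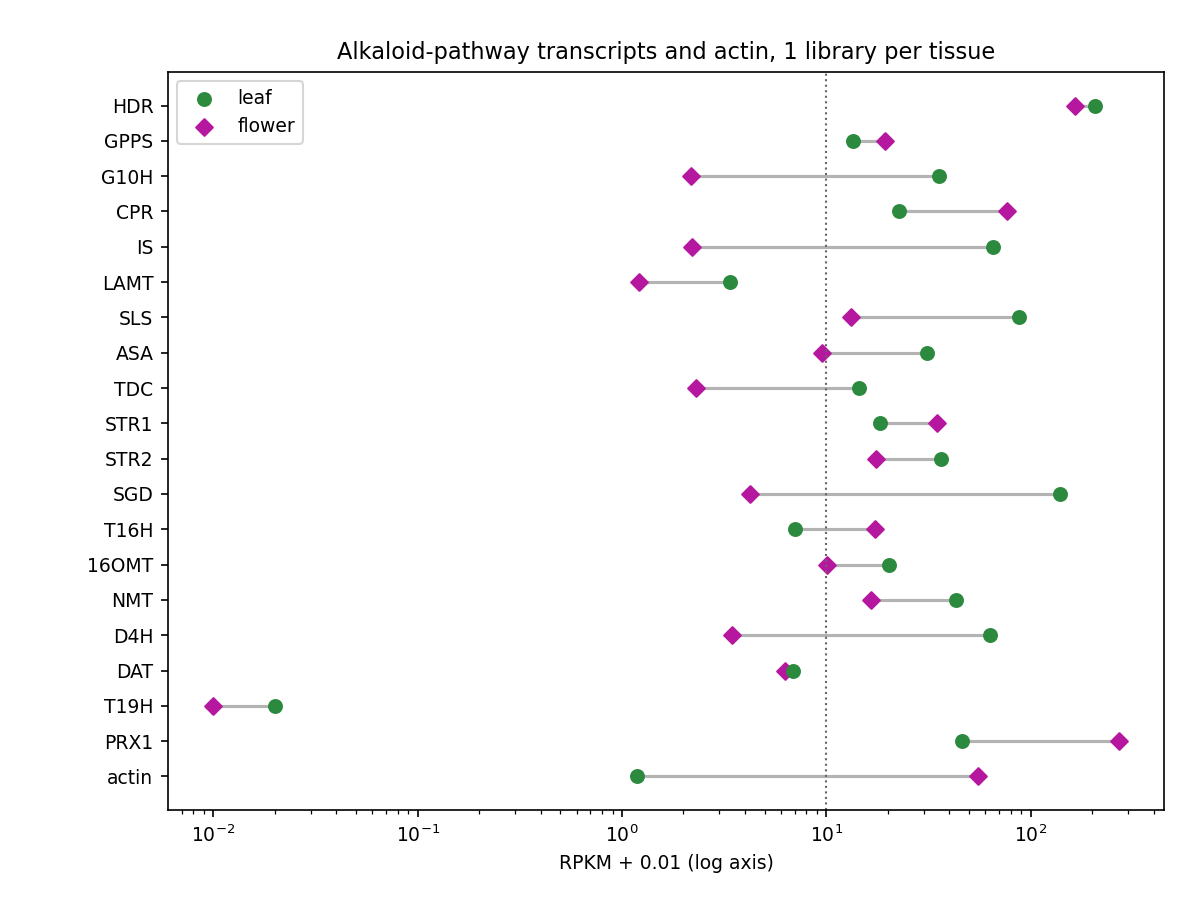
Levels of the 19 alkaloid-pathway transcripts and actin in leaf (circles) and flower (diamonds), as RPKM + 0.01 on a log axis, with 1 library per tissue and no error bars; the dotted line marks 10 RPKM. The widest gaps with leaf on the right are those of SGD, IS, D4H and G10H, while PRX1, CPR and actin lie further right in flower.

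HDR (Cr_TC43359), which catalyses the closing MEP step, stood at 206 RPKM in leaf and 166 RPKM in flower. It was the highest of the 19 in leaf, at rank 180 of all transcripts there, and ranked 293 in flower. The plain ratio was 1.24 (1.18 to 1.31 by counting), well within 2-fold. It is the only MEP transcript described here.

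Of 6 transcripts grouped with the iridoid branch, leaf was higher by 2-fold or more for 3 and lower for 1. Among all transcripts compared, 21.5% were higher and 20.9% lower. LAMT, counted in this group, did not reach 10 RPKM. The group includes GPPS, which acts ahead of the branch, and CPR, which serves P450 enzymes in general. The lower transcript was CPR. The gaps were widest for IS and G10H. IS (Cr_TC07184), the iridoid synthase that closes the ring, had 65.9 RPKM in leaf and 2.19 RPKM in flower, a ratio of 30.1 (21.7 to 45.3). G10H (Cr_TC57680), the cytochrome P450 that hydroxylates geraniol, had 35.8 RPKM in leaf and 2.16 RPKM in flower, a ratio of 16.6 (11.7 to 24.8). The flower levels of the pair were thus nearly alike, whereas leaf held more IS than G10H.

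SLS (Cr_TC01142), the cytochrome P450 that makes secologanin at the end of the branch, had 87.9 RPKM in leaf and 13.3 RPKM in flower. Its log2 ratio was 2.64, so that flower kept a larger part of the leaf level than for IS or G10H. LAMT (Cr_TC02224), the methyltransferase acting just before SLS, was low in both, with 3.37 RPKM in leaf and 1.2 RPKM in flower. Its log2 ratio of 0.99 fell just short of 2-fold, although the plain ratio was 2.81 (1.59 to 5.06), and it was past 2-fold with a pseudocount of 0.1 (1.42) and with libraries of the same total (1.01).

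GPPS and CPR went the other way. GPPS (Cr_TC33950), named for the synthase that makes geranyl diphosphate ahead of the branch, had 13.5 RPKM in leaf and 19.3 RPKM in flower, which is within 2-fold. CPR (Cr_TC07063), the reductase that passes electrons to cytochrome P450 enzymes in general, had 22.7 RPKM in leaf and 76.4 RPKM in flower, a log2 ratio of -1.71. Of the P450 transcripts described here that reached 10 RPKM, G10H and SLS were higher in leaf, whereas T16H, like the reductase, was lower.

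Both indole-branch transcripts were at least 2-fold higher in leaf, beside 21.5% of all transcripts compared. ASA (Cr_TC39398), the alpha subunit of anthranilate synthase at the entry to tryptophan synthesis, had 31.2 RPKM in leaf and 9.52 RPKM in flower. TDC (Cr_TC33880), which decarboxylates tryptophan to tryptamine, had 14.5 RPKM in leaf and 2.29 RPKM in flower. The log2 ratios were 1.62 for ASA and 2.24 for TDC. With a pseudocount of 10, TDC lay just within 2-fold (0.995). TDC was the lower of the pair in both tissues.

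SGD (Cr_TC57924), the glucosidase that acts on strictosidine, showed the largest ratio of the 19. It had 139.8 RPKM in leaf and 4.25 RPKM in flower, a ratio of 32.9 (25.9 to 43.5), and ranked 346 in leaf and 15067 in flower. Among the 684 transcripts whose larger value lay between 100 and 200 RPKM, 15 (2.19%) were as far or further on the leaf side. SGD was among the transcripts the study had picked for RT-PCR as differentially expressed, so this share is not independent of the data. The step just before it showed no such gap.

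For strictosidine synthase, 2 transcripts were described and they pointed in opposite directions. STR1 (Cr_TC04185) had 18.4 RPKM in leaf and 34.8 RPKM in flower, a log2 ratio of -0.89. STR2 (Cr_TC05794) had 36.3 RPKM in leaf and 17.5 RPKM in flower, a log2 ratio of 1.01. STR2 lay at the line and fell within 2-fold with a pseudocount of 10 (0.75), when the upper quartiles were made equal (0.94) and when the median ratio was set to 1 (0.97). Reads were counted only where they mapped to 1 place, so transcripts with near-identical copies lose reads, and how alike STR1 and STR2 are was not examined here.

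The vindoline branch was uneven. Of its 5 transcripts, leaf was higher by 2-fold or more for 2 and lower for 1. Among all transcripts compared, 21.5% were higher and 20.9% lower. DAT, counted in this branch, did not reach 10 RPKM. D4H (Cr_TC51001), the dioxygenase that hydroxylates desacetoxyvindoline, had 63.2 RPKM in leaf and 3.45 RPKM in flower, a ratio of 18.3 (14 to 25.1). NMT (Cr_TC06574), the N-methyltransferase before it, had 43.3 RPKM in leaf and 16.6 RPKM in flower, a log2 ratio of 1.33. Leaf thus led at both of these late steps, but by very different amounts.

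The transcripts described for the first and last steps of the branch, T16H and DAT, did not share that lead. Each step is read here from a single transcript, and whether others serve the same step was not examined. T16H (Cr_TC35206), the cytochrome P450 that opens it, had 7.01 RPKM in leaf and 17.3 RPKM in flower, a log2 ratio of -1.19 that fell within 2-fold with a pseudocount of 10 (-0.68). 16OMT (Cr_TC58091), which methylates the product of T16H, had 20.2 RPKM in leaf and 10.1 RPKM in flower. Its log2 ratio of 0.94 fell just short of 2-fold, although the plain ratio was 2.01 (1.65 to 2.46). DAT (Cr_TC35622), the acetyltransferase that completes vindoline, had 6.85 RPKM in leaf and 6.29 RPKM in flower, and its counting interval for the ratio, 0.812 to 1.45, included equal levels. T19H (Cr_TC04217), which hydroxylates tabersonine at another position, had 0.01 RPKM in leaf and was listed at 0 in flower, and no ratio is given.

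PRX1 (Cr_TC57083), a class III peroxidase placed at the coupling of vindoline with catharanthine, was the pathway transcript furthest on the flower side. It had 46.1 RPKM in leaf and 270.2 RPKM in flower, where it was the highest of the 19 at rank 139. Flower exceeded leaf 5.86-fold (5.41 to 6.37). In its band of 200 to 500 RPKM, 32.2% of transcripts were as far or further on the flower side.

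Actin (Cr_TC35401), a cytoskeletal gene against which the RT-PCR was normalised, had 1.17 RPKM in leaf and 55.1 RPKM in flower. This is a single assembled transcript, and its leaf value may rest on as few as 17 reads. Other actin transcripts were not examined, nor whether near-identical copies took reads from this transcript. Flower exceeded leaf 47.1-fold (30.2 to 83.8), more than the ratio of any pathway transcript in either direction apart from T19H, for which none is given. Among transcripts whose larger value lay between 50 and 100 RPKM, 5.6% were as far or further on that side.

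**Figure D2:**
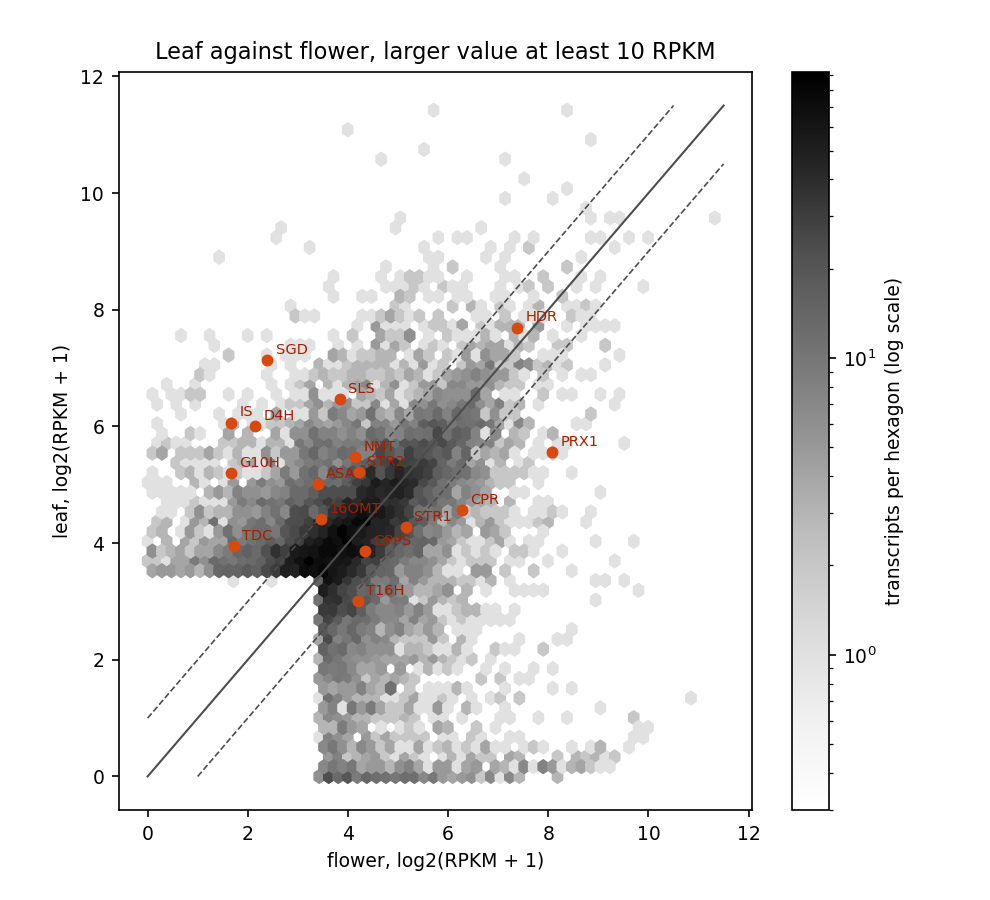
Leaf against flower on the log2(RPKM + 1) scale for the 12310 transcripts compared, shaded by the number in each hexagon, with the 16 named pathway transcripts of at least 10 RPKM as points. The solid line marks equal values and the dashed lines 2-fold; 9 named points lie beyond the line on the leaf side and 3 on the flower side, and a dense row at the bottom holds transcripts high in flower and near 0 in leaf.

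Over all 12310 transcripts, 57.6% lay within 2-fold and the quartiles of the log2 ratio were -0.77 and 0.83. Counted from 2-fold upwards, the transcripts apart were nearly balanced between the tissues, and from 8-fold upwards they were not. Each count includes all larger gaps, so the balance at 2-fold does not describe small differences by themselves. At 2-fold, 50.6% of the transcripts apart were higher in leaf, at 8-fold 32.5%, and at 16-fold 21.9%. At 8-fold, 3.47% of the transcripts compared were higher in leaf and 7.19% lower. A gap of 16-fold was reached by 136 transcripts on the leaf side (1.1%) and by 486 on the flower side (3.95%). At 32-fold, 51 were higher in leaf, which is 0.414% of those compared, and 285 were lower, or 2.32%. The flower side stayed the larger at 32-fold with a pseudocount of 0.1 (125 higher and 559 lower in leaf), with a pseudocount of 10 (6 and 39) and under each of the 3 scalings, where leaf gave 49 to 51 and flower 282 to 290.

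**Figure D3:**
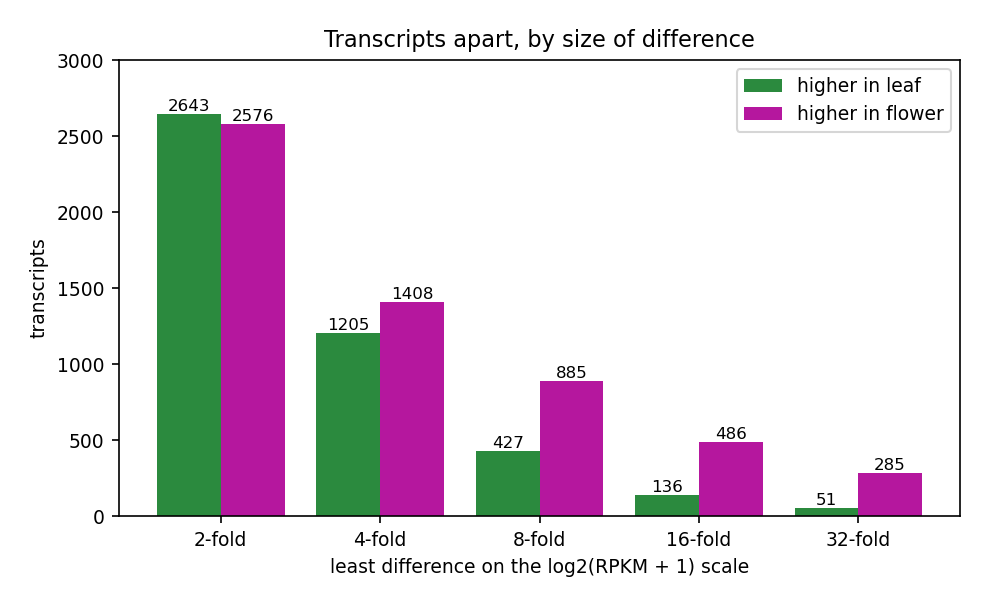
Number of transcripts at least 2- to 32-fold apart on the log2(RPKM + 1) scale, higher in leaf (left bar of each pair) and higher in flower (right bar), with the larger value at least 10 RPKM. The bars are nearly level at 2-fold (2643 and 2576) and far apart at 32-fold (51 and 285).

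Transcripts high in one tissue and nearly missing from the other were mainly on the flower side. Of 9928 transcripts with at least 10 RPKM in leaf, 155 (1.56%) were under 1 RPKM in flower. Of 9641 with at least 10 RPKM in flower, 585 (6.07%) were under 1 RPKM in leaf. At 100 RPKM or more the contrast was sharper, with 3 of 597 in leaf and 112 of 671 in flower.

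Some were listed at 0 in the other tissue, namely 3 transcripts of at least 10 RPKM in leaf and 94 in flower. Cr_TC35842 was the highest of those listed at 0 in flower, with 32.6 RPKM in leaf. Cr_TC23400 was the highest of those listed at 0 in leaf, with 167 RPKM in flower, followed by Cr_TC05434 at 152 RPKM and Cr_TC01127 at 150.5 RPKM. A value of 0 allows a level of up to 0.2 RPKM, taking 3 independent reads on the shortest transcripts. The level allowed is higher if reads of the same pair were counted separately.

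The largest differences involved some of the most abundant transcripts of the flower. Cr_TC40939 had 1.66 RPKM in leaf and 1884 RPKM in flower, where it ranked 2. Cr_TC40483 had 0.73 RPKM in leaf and 1079 RPKM in flower, and Cr_TC41419 had 0.49 RPKM in leaf and 961 RPKM in flower. These ranked 3 and 5 in flower, and Cr_TC36061 and Cr_TC19058, at ranks 13 and 10, completed the 5 furthest on that side, with log2 ratios between -9.47 and -9.08. Not every abundant flower transcript was of this kind. Cr_TC38051, rank 1 in flower, had 781 RPKM in leaf and 2738 RPKM in flower, and Cr_TC20450, rank 4, was within 2-fold.

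On the leaf side, Cr_TC05304 stood furthest, with 483 RPKM in leaf and 1.61 RPKM in flower. Cr_TC56590 had 188 RPKM in leaf and 0.49 RPKM in flower, and Cr_TC05122, rank 3 in leaf, had 2083 RPKM in leaf and 15.4 RPKM in flower. Cr_TC32952 and Cr_TC58107 followed, at log2 ratios of 6.79 and 6.74. The leading leaf transcript, Cr_TC58547, had 2739 RPKM in leaf and 53.7 RPKM in flower. The 5 most abundant leaf transcripts all had 15.4 RPKM or more in flower, among them Cr_TC20885 with 2679 RPKM in leaf and 312 RPKM in flower, Cr_TC58787 with 1876 and 478 RPKM, and Cr_TC48848 with 1694 and 45.1 RPKM.

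The 100 highest transcripts of each tissue gave the same picture. Of the 100 highest in leaf, 73 were at least 2-fold higher there than in flower, but 8 were at least 32-fold higher. Of the 100 highest in flower, 74 were at least 2-fold higher there than in leaf, and 46 were at least 32-fold higher. The lists shared 19 transcripts. Transcripts at least 32-fold higher in leaf held 3.22% of the summed RPKM of leaf. Those at least 32-fold higher in flower held 11.4% of the summed RPKM of flower.

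The share of transcripts apart depended on the level of expression and on how that level was defined. Grouped by the larger value, 34.4% of the 4838 transcripts between 10 and 20 RPKM were at least 2-fold apart, 53.8% of the 1680 between 50 and 100 RPKM, and 82.4% of the 74 at 500 RPKM or more. Grouping by the larger value gathers transcripts that are high in 1 tissue alone. Grouped by the geometric mean of (RPKM + 1), the shares were 33.4% between 10 and 20 and 36.9% between 50 and 100. They were 39.2% of the 293 between 100 and 200 and 44.7% of the 85 between 200 and 500. At 500 or more the share was 40.0% of 15 transcripts. Most of the climb was therefore absent under that grouping.

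**Figure D4:**
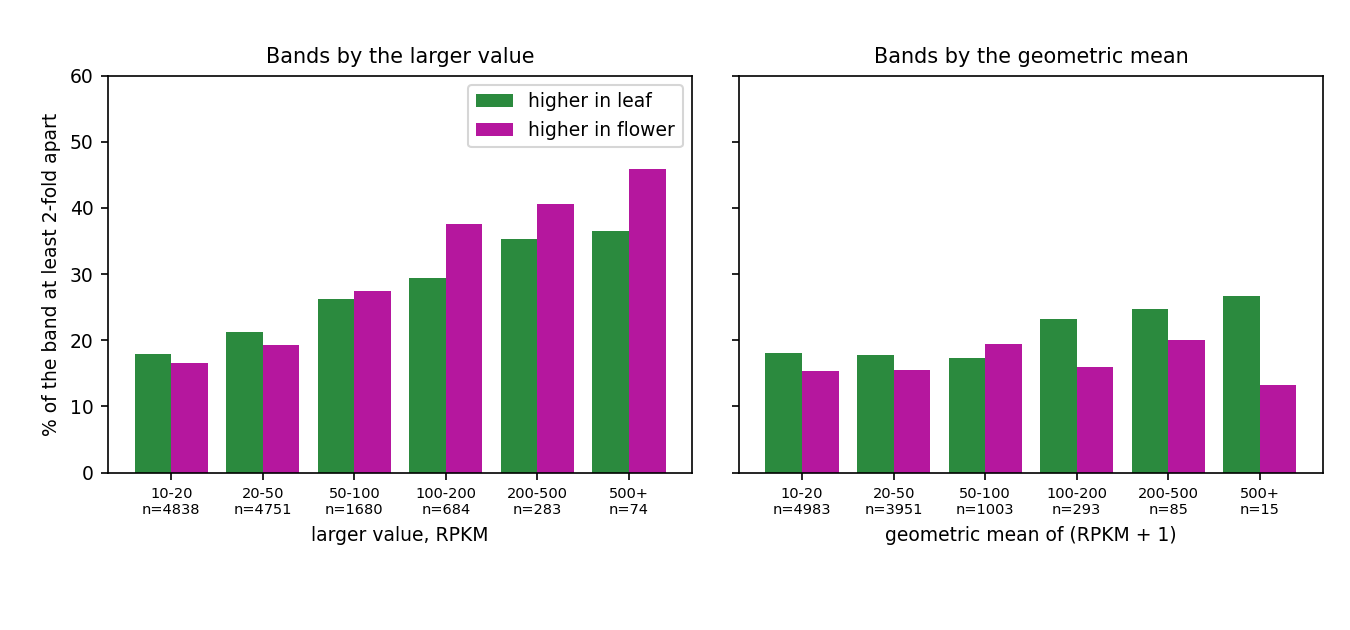
Percentage of transcripts at least 2-fold higher in leaf (left bar of each pair) and in flower (right bar) by band of expression, with bands set by the larger value (left panel) and by the geometric mean of (RPKM + 1) (right panel); n is the number of transcripts in a band. With bands by the larger value the shares climb to 36.5% in leaf and 45.9% in flower at 500 RPKM or more; with bands by the geometric mean they are 26.7% and 13.3% there, of 15 transcripts.

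The side that led also changed with level. Between 10 and 20 RPKM, by the larger value, 17.9% were higher in leaf and 16.5% lower, whereas between 100 and 200 RPKM 29.4% were higher and 37.6% lower. The median log2 ratio was 0.13 in the lowest band and -0.57 in the highest. At the ends of the bands, Cr_TC57075 had 44.5 RPKM in leaf and 0.07 RPKM in flower, and Cr_TC13240 had 90.3 RPKM in leaf and 0.11 RPKM in flower. In the other direction Cr_TC43513 had 0.17 RPKM in leaf and 482 RPKM in flower, and Cr_TC48543 had 0.06 RPKM in leaf and 182 RPKM in flower. By the geometric mean, 23.2% were higher in leaf and 16% lower between 100 and 200, so the flower lead in that band was not seen with that grouping. Between 50 and 100, 17.3% were higher in leaf and 19.5% lower. The geometric mean places transcripts near 0 in leaf in lower bands, so it could hardly show a lead made by them.

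Against their own bands by the larger value, several pathway transcripts on the leaf side lay far out. For G10H 1.6% of the 4751 transcripts between 20 and 50 RPKM were as far or further, for IS 1.73% and for D4H 2.62% of the 1680 between 50 and 100 RPKM, and for TDC 4.4% of the 4838 between 10 and 20 RPKM. SLS was less extreme, with 8.63%, as were ASA (12.6%), NMT (16.2%) and STR2 (21.2%). G10H, IS, D4H, TDC and SLS were among those the study had picked for RT-PCR as differentially expressed. ASA, NMT and STR2 were not. The picking used the leaf library described here, so the small shares are not independent of it and say little about the pathway. On the flower side, 17.6% were as far or further than CPR and 14.2% than T16H. None of the 19 was among the transcripts at least 32-fold apart on the log2(RPKM + 1) scale.

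The line at 10 RPKM divided similar transcripts. Just inside it, 658 transcripts had a larger value between 10 and 11 RPKM, with a median log2 ratio of 0.14. Just outside it, 673 lay between 9 and 10 RPKM, with a median of 0.10.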

How the data were processed

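Libraries of leaf and flower, made with an mRNA-Seq kit from total RNA, were sequenced on the Illumina platform, 1 per tissue. Per the study's methods, reads were quality filtered, duplicate reads were removed, reads were mapped to the merged de novo assembly with CLC Genomics Workbench (at most 2 mismatches), and unique counts were turned into RPKM. Removing duplicates can lower the values of very abundant transcripts. The authors' processing notes also name DESeq. The column of the deposited files is headed Base mean, but its values, with 2 decimals and sums of 452743 in leaf and 464279 in flower, are on the scale of RPKM, and the authors' RPKM were used as deposited. Whether size factors were also applied is not given in the sources used here.

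The measure was log2((leaf RPKM + 1)/(flower RPKM + 1)). No test was run, since the deposited values are not counts, and with 1 library per tissue a test could not measure the spread within a tissue. Transcript lengths were not used here. The reads behind a value were therefore bounded from below with 60 Mreads mapped per library, under the depth the study gives for each, and transcripts of at least 0.25 kb. This gives 15 reads per RPKM, and exact (Clopper-Pearson) 95% intervals of the ratio. The intervals treat each read as independent, although sequencing was paired-end, so they may be too narrow. They cover counting error only.

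Members and lists were chosen with earlier results of these data known. Of the 19 pathway transcripts, 3 are paired with a name in the study's text and 16 pairings were taken from an earlier reading of its pathway scheme. Further transcripts of the pathway were not analysed here. By identifier alone, the 5 furthest on each side among those reaching 100 RPKM, the 5 highest in each tissue, the 3 highest listed at 0 in the other tissue and the furthest in each band were eligible to be named. A RefSeq gene table matched 0 of the 59220 identifiers, and no sequence or genome position is given. The code was tested on simulated data. Alternatives were pseudocounts of 0.1 and 10, 3 scalings, other minimums, 4-fold and other bands; those at 8- and 32-fold were chosen after seeing the data. The software was scipy 1.17.1, pandas 2.3.3, numpy 2.4.6 and matplotlib 3.10.9 under Python 3.11.15.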

Additional observations from a re-analysis of the deposited data

How the results depend on the processing

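Scaling by equal totals, equal upper quartiles or the median ratio moved log2 ratios by 0.04, -0.07 and -0.04, and the share of transcripts apart that was higher in leaf was 52.3%, 47.6% and 48.9%, so the small lead of leaf at 2-fold turned round under the last 2. No pathway transcript changed sign under the alternatives run, but they could hardly have shown it. A pseudocount added to both tissues cannot change a sign, and the scalings moved ratios only by the amounts above. With a pseudocount of 10, 7 of the 19 were higher and 2 lower, without STR2, TDC and T16H, and the log2 ratios of IS, D4H and G10H were 2.64, 2.44 and 1.91. With it, 1563 transcripts were higher in leaf, and 509 were apart between 10 and 20 RPKM. At 4-fold, 1205 were higher and 1408 lower, 1 pathway transcript (PRX1) was lower, and 689, 893 and 504 were apart in the bands from 10, 20 and 50 RPKM. With no minimum 5110 were higher and 5372 lower, and with a minimum of 50 RPKM 769 and 868. With bands by the geometric mean, 370, 115, 38 and 6 transcripts were apart in the bands from 50, 100, 200 and 500. No paired analysis was possible because each tissue has 1 library, and none could be left out. Depth limits values under 1 RPKM, which may rest on fewer than 15 reads on short transcripts.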

Other observations

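Below the minimum of the report, 17427 transcripts had their larger value between 1 and 10 RPKM. Of these, 2467 were higher in leaf by 2-fold or more and 2796 lower on the log2(RPKM + 1) scale, 30.2% in all, with a median log2 ratio of 0.13. LAMT and DAT lie in this range. Both tissues were listed at 0 for 11530 transcripts, while 1306 were above 0 in leaf and listed at 0 in flower, and 3015 were above 0 in flower and listed at 0 in leaf.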
